A study of Mus musculus with 15 samples.

Results

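The transcripts described are those of the constitutive proteasome, chosen by gene symbol: every row whose symbol begins with Psma, Psmb, Psmc or Psmd and a digit, without the immunoproteasome subunits Psmb8, Psmb9 and Psmb10 and without pseudogene symbols. The rule found 35 of the 14806 rows of the table, and no measured value entered it. Of these, 31 encode subunits, 14 of the core particle and 17 of the regulatory particle. Another 3 (Psmd5, Psmd9 and Psmd10) encode chaperones that assemble the base of the regulatory particle. The last, Psmc3ip, shares only the first letters of its symbol: its protein works with the recombinases of meiosis and is not a proteasome subunit.

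The proteasome degrades proteins that carry ubiquitin chains. Its core particle is a barrel of stacked rings, in which the outer alpha rings gate the entry and the inner beta rings hold the catalytic sites. The regulatory particle caps the barrel: its base contains a ring of ATPases that unfold the substrate, together with scaffold and ubiquitin-binding subunits, and its lid removes the ubiquitin. In skeletal muscle the ubiquitin-proteasome pathway breaks down myofibrillar proteins, and its activity and several of its genes are known to rise in many forms of wasting. Nfe2l1 is the transcription factor known to raise proteasome subunit genes together when degradation is impaired.

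RNA was measured by sequencing of quadriceps from male DBA/2J-mdx mice, which lack dystrophin and model Duchenne muscular dystrophy. All groups share this strain, sex and tissue, and no healthy strain was analysed here. Vehicle mice were given DMSO by intraperitoneal injection 7 times a week. Prednisone is a synthetic glucocorticoid, and the dose was 1 mg/kg: weekly mice got it in 1 injection and DMSO in the other 6 of the week, daily mice in all 7. Each group has 5 libraries. The length of treatment is not given in the labels. The labels give an age of about 7 months for the samples and of 6 months in the protocol. They do not say that the libraries came from separate animals, so the p-values speak only of the spread among these libraries, which may be technical in part or whole. Bulk muscle was sequenced, and in such data fewer cells of a type and less RNA per cell cannot be told apart.

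All 10 skeletal muscle fibre markers were present, with a summed level of 137630 to 268960 CPM per library (reads scaled to the same library total), as the labelled tissue would have. Depth was 2780768 to 11052552 reads per library. The biological coefficient of variation, the spread between libraries beyond counting noise, was 3.55% in vehicle, 29.4% in weekly and 9.40% in daily libraries. A pair of libraries stood apart. Weekly 4 was the shallowest and had 24833 CPM of fibroblast, 1728 CPM of macrophage and 752 CPM of regeneration markers, against at most 3178, 471 and 194 CPM in weekly 1, 2, 3 and 5. Daily 3 had 20.5% of its reads in the single gene Gm26924, which lowers the CPM of every other gene in it. Composition also differed beyond this pair. The mitochondrial transcript mt-Rnr2 held 12.6% to 13.4% of reads in vehicle and 8.05% to 14.35% in daily libraries. In weekly 1 to 5 it held 8.46%, 6.22%, 6.24%, 0.567% and 9.41%. Values are therefore given on the deposited CPM scale and with TMM scaling, which corrects for such composition differences. On the deposited scale the median change of all genes in weekly against vehicle was 0.17, and 0.15 without weekly 4. For each gene the TMM-scaled log2 change was taken from the deposited one. The median of these differences over all genes was 0.17 for weekly minus vehicle, -0.08 for daily minus vehicle and -0.26 for daily minus weekly.

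Upstream sequence is shown for Psmd8 and Psmb3, the genes called lower in daily than in vehicle libraries on both scales. It is also shown for the catalytic subunits Psmb5 and Psmb6, where it holds a match to the letters of the antioxidant response element (ARE). That element is the motif of Nfe2l1 and its relatives, and binding was not measured here. Each run is the 150 bases before the RefSeq transcription start in GRCm38.p6, written 5′ to 3′ on the strand of the gene. Capitals mark ARE matches (TGACNNNGC) and CCAAT boxes (CCAAT), the motif of NF-Y. Psmd8 lies on the minus strand at chr7:29180674-29180823, Psmb3 on the plus strand at chr11:97703284-97703433, Psmb5 on the minus strand at chr14:54617996-54618145 and Psmb6 on the plus strand at chr11:70525207-70525356.
Psmd8: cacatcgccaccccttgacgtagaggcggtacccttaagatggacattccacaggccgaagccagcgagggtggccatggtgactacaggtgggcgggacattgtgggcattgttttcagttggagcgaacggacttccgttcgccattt
Psmb3: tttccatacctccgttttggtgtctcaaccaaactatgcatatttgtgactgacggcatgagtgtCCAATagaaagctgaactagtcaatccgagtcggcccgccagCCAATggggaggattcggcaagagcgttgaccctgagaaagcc
Psmb5: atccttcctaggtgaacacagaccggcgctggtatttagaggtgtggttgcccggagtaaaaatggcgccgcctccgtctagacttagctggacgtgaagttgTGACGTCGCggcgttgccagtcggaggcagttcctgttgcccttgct
Psmb6: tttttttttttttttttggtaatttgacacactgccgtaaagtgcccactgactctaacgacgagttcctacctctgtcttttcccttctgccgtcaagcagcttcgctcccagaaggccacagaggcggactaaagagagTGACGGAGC

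RefSeq promoters, 250 bases before to 50 bases after each start, were available for 29 of the 35 rows, with 31 promoters among them. Both strands were searched. The ARE letters occurred in 5 of 31 promoters (16.1%; Psmb5, Psmb6, Psmc6, Psmd12 and Psmd9) and in 12.4% of all promoters of that length. CCAAT occurred in 12 of 31 (38.7%), against 37.4% of all promoters, and no promoter of these rows held both motifs. The full palindromic glucocorticoid response element (GNACA, any 3 bases, then TGTNC) was found in 0 of 31, and it is rare at 0.475% of all promoters. Psmd8 had none of the 3 motifs in its window, which says only that these letters are not there.

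In vehicle libraries, levels per kilobase of exon spread widely among subunits of one complex, in the lid alone from 9.86 to 41.0 CPM per kilobase. Psmd2, the base scaffold, was highest at 51.8 ± 1.29 CPM per kilobase (SD, n = 5). Psmd8, a lid subunit, came next at 41.0 ± 1.18, followed by the alpha subunit Psma6 at 39.8 ± 2.88, whose spread overlaps that of Psmd8. The lowest subunit was the lid member Psmd13 at 9.86 ± 0.986, close to the ATPase Psmc2 at 10.2 ± 0.671. The catalytic subunits lay at 34.0 ± 1.09 (Psmb5), 24.7 ± 0.683 (Psmb7) and 19.2 ± 1.46 CPM per kilobase (Psmb6). The 3 assembly chaperones were lower than any subunit, from 1.22 ± 0.114 for Psmd9 to 3.15 ± 0.215 for Psmd10, and Psmc3ip lay at 0.643 ± 0.344. These levels rest on the summed length of all annotated exons, which is longer than any one transcript for genes with several isoforms. Counts were ample for the subunits: the lowest in any library was 45 reads, for Psmb2 in weekly 4. Psmc3ip reached only 1 read in its lowest library.

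Subunit transcripts as a whole were lower in daily than in vehicle libraries. The 14 core transcripts summed to 650 ± 14.9 TMM-scaled CPM in vehicle, 607 ± 53.2 in weekly and 550 ± 22.5 in daily libraries (SD, n = 5 each). For the 17 regulatory particle transcripts the sums were 1329 ± 18.5, 1236 ± 98.9 and 1154 ± 47.7. The daily sums differed from vehicle by -15.4% (core) and -13.1% (regulatory particle), and every daily library was below every vehicle library for both particles, on both scales. Weekly sums differed by -6.67% and -7.00% with TMM scaling but by 5.45% and 5.18% on the deposited scale, so their direction depends on the scaling. No test was made on the sums.

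**Figure D1:**
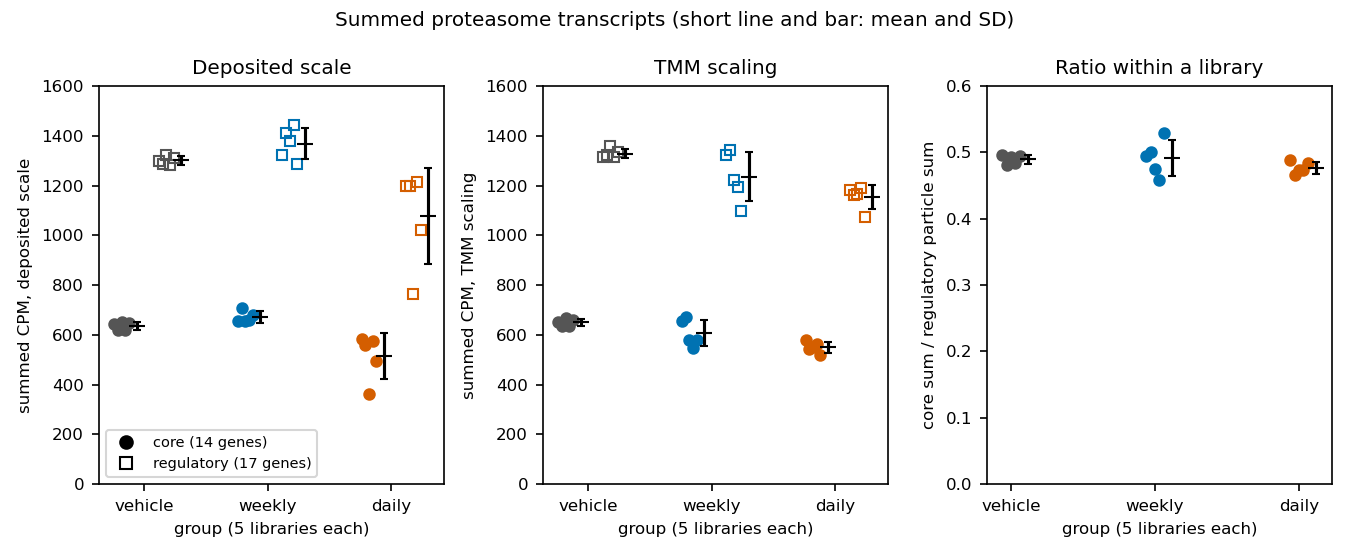
Summed CPM of the 14 core (filled circles) and 17 regulatory particle transcripts (open squares) in each of the 15 libraries on the deposited scale (left) and with TMM scaling (middle), and the core sum divided by the regulatory particle sum within each library (right); short lines and bars are mean and SD over 5 libraries. With TMM scaling the daily core sums lie at 518 to 578, below all vehicle sums at 635 to 669, and the ratio stays between 0.459 and 0.529.

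The balance of the particles moved less than their level. The core sum divided by the regulatory particle sum, which no scaling affects, was 0.490 ± 0.00686 in vehicle, 0.492 ± 0.0268 in weekly and 0.477 ± 0.00897 in daily libraries. The vehicle range of 0.481 to 0.496 overlapped the daily range of 0.466 to 0.488. Weekly libraries spread most, from 0.459 to 0.529.

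Across the transcripts of daily against vehicle, all 31 subunits had a negative log2 change, on the deposited and on the TMM scale, whereas 61.6% and 49.7% of all 14059 genes tested did. The median over all 35 rows was -0.28 on the deposited scale, against -0.08 for all genes, and -0.20 with TMM scaling, against 0. Few single genes passed the test. With limma on all 14059 genes, 2 of the 35 rows were called lower and 0 higher at a BH-adjusted p under 0.05 (5.71%). Over all genes 3.89% were called, 1.76% higher and 2.13% lower. The 2 rows were Psmd8 and Psmb3. In a fit of the daily and vehicle libraries only, 5 rows were called lower on the deposited scale, and 1665 genes over the table. Leaving out 1 library, 5 rows were called without weekly 4 and 1 (Psmd8) without vehicle 1, 2, 3 or 5 or daily 5. With TMM scaling 5 rows were called lower and 0 higher (Psma5, Psmb1, Psmb3, Psmc2 and Psmd8), against 3.47% lower and 5.61% higher of all genes. Counting ranges only, 11 of 31 subunits had every daily library below every vehicle library on the deposited scale and 14 of 31 with TMM scaling, where the shares of all genes were 8.82% and 9.59%. The rows share libraries and scaling, so these counts describe the set and do not test it. With the 5 vehicle libraries averaged to 1 sample, since their spread may be technical, 0 rows were called (1 at an unadjusted p under 0.05, and 3 with TMM scaling). That setting called 3 genes in the whole table (19 with TMM scaling), so its 0 says nothing particular about these rows.

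Marker levels of the tissue differed in the same libraries. The summed muscle fibre markers were 137630 to 218120 CPM in daily libraries and 233430 to 238350 CPM in vehicle libraries, without overlap. Adipocyte markers (8 of 8 present) were 137 to 313 CPM in daily and 439 to 477 CPM in vehicle libraries, and red blood cell markers (3 of 5 present) 23.4 to 45.1 against 79.1 to 84.8 CPM. Fibroblast markers (8 of 8) were 1997 to 3581 against 1966 to 2189 CPM and macrophage markers (9 of 10) 265 to 529 against 420 to 454 CPM. Endothelial markers (6 of 6) were 114 to 184.9 against 185.3 to 205 CPM and regeneration markers (5 of 6) 107 to 252 against 122 to 138 CPM. With TMM scaling every daily library was above every vehicle library for fibroblast markers (2752 to 3763 against 2013 to 2230 CPM) and for regeneration markers (163 to 265 against 123 to 142 CPM), and below it for muscle fibre markers (184400 to 215910 against 238560 to 242890 CPM). Daily libraries were likewise all below vehicle for adipocyte (195 to 310 against 450 to 486 CPM) and red blood cell markers (34.8 to 44.7 against 80.1 to 87.0 CPM). The same held for endothelial markers (174 to 186 against 187 to 211 CPM), while macrophage sums overlapped (369 to 556 against 430 to 462 CPM). No marker in these lists was at 0 in all libraries, and 0 of 6 lymphocyte markers had a row. Their part in the proteasome values was not tested.

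**Figure D2:**
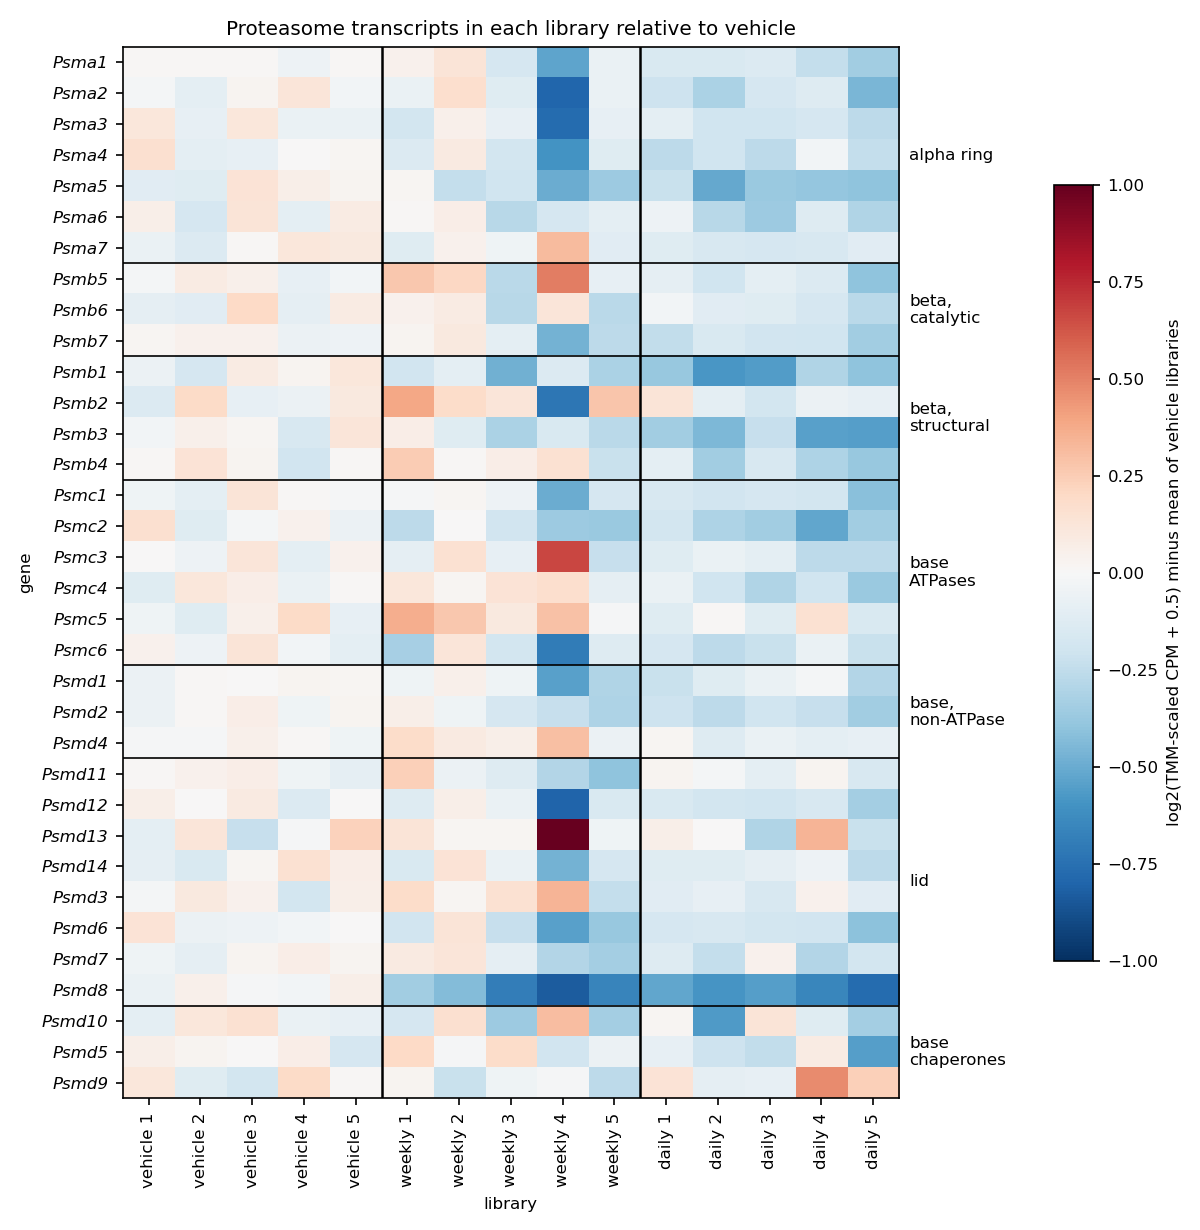
Each row is 1 proteasome gene, grouped by its role, and each column 1 library; the colour is log2(TMM-scaled CPM + 0.5) minus the mean of the vehicle libraries (for a vehicle library, the mean of the other 4), from blue (lower) to red (higher). Psmd8 is blue in all 10 treated libraries, daily columns are blue for 27 to 31 of the 31 subunits, and weekly 4 shows both the strongest blues and Psmd13 in deep red at 1.00.

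Psmd8 showed the largest fall of any member. It encodes a subunit of the lid, which in budding yeast is the last to join the lid during assembly. The gene lies at chr7:29174188-29180701 on the minus strand of GRCm38, with no annotated exon of another gene over its own. Vehicle libraries 1 to 5 measured 122, 128, 124, 123 and 130 CPM, weekly libraries 101, 100.1, 89.6, 86.7 and 94.5 CPM, and daily libraries 89.9, 87.5, 57.2, 83.5 and 71.1 CPM. All 10 treated libraries were thus below all 5 vehicle libraries. Daily 3, the library with the Gm26924 excess, was the lowest on this scale. With TMM scaling daily libraries measured 89.0, 84.8, 87.5, 81.7 and 74.7 CPM and weekly libraries 100.7, 95.2, 79.4, 71.8 and 80.7 CPM, against 123 to 133 CPM in vehicle. The groups were again apart from vehicle, and daily 3 no longer stood out.

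In daily against vehicle the log2 change of Psmd8 was -0.70 (SE 0.13, limma BH-adjusted p = 0.00203) on the deposited scale and -0.62 (SE 0.09, limma BH-adjusted p = 0.000274) with TMM scaling. Weekly against vehicle gave -0.41 (SE 0.13, limma BH-adjusted p = 0.0504), just outside the threshold, and -0.59 (SE 0.09, limma BH-adjusted p = 0.000487) with TMM scaling, inside it. Without daily 3 or without weekly 2 the deposited value was called too (limma BH-adjusted p = 0.00353 and 0.0469). Both comparisons use the same vehicle libraries. Directly compared, daily and weekly did not pass the test: the difference was -0.29 (SE 0.13, limma BH-adjusted p = 0.139) on the deposited scale and -0.03 with a 95% interval of -0.22 to 0.16 with TMM scaling. Psmd8 was the subunit farthest below its vehicle level in 9 of the 10 treated libraries; in daily 3 it was Psmb1.

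**Figure D3:**
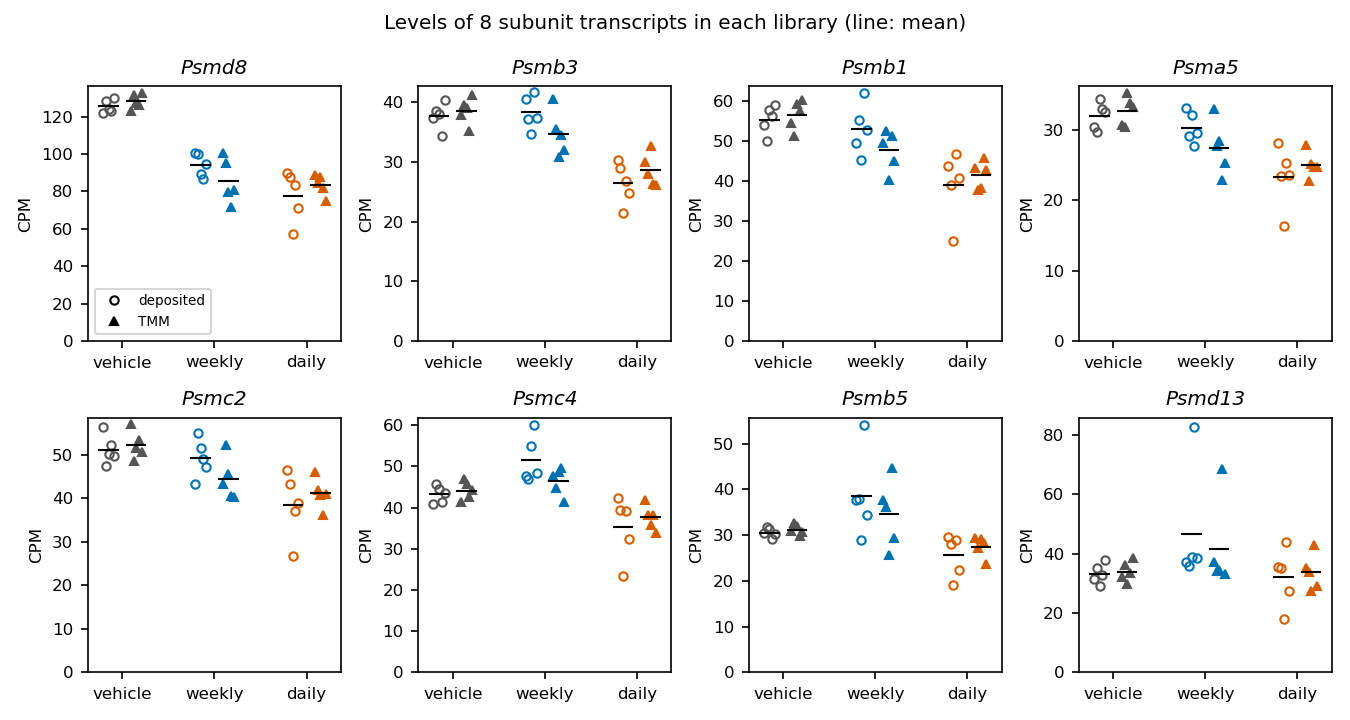
CPM of 8 subunit transcripts in every library of the vehicle, weekly and daily groups, as deposited (open circles) and with TMM scaling (filled triangles); short lines are means of 5 libraries, and each panel starts at 0. Psmd8 is the panel in which both treated groups lie wholly below vehicle on both scales, while Psmd13 has a single high point, weekly 4.

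Among the structural beta subunits, which build the inner ring without catalytic sites, Psmb3 and Psmb1 were lower in daily libraries. Psmb3 (chr11:97703399-97713500, plus strand) measured 37.4, 38.5, 38.0, 34.3 and 40.5 CPM in vehicle libraries 1 to 5 and 30.3, 28.9, 21.4, 26.8 and 24.8 CPM in daily libraries 1 to 5. The 2 ranges did not overlap. Its change was -0.51 (SE 0.13, limma BH-adjusted p = 0.0216) on the deposited scale and -0.43 (SE 0.09, limma BH-adjusted p = 0.00747) with TMM scaling. The deposited call was lost without vehicle 1, 2, 3 or 5 or without daily 5 (limma BH-adjusted p = 0.0567 to 0.0765). Psmb1 (chr17:15475021-15499751, minus strand) averaged 38.9 ± 8.37 CPM in daily and 55.3 ± 3.57 CPM in vehicle libraries, also without overlap. Its change of -0.53 (SE 0.15, limma BH-adjusted p = 0.0523) missed the threshold on the deposited scale, and -0.44 (SE 0.09, limma BH-adjusted p = 0.00433) passed with TMM scaling. Without weekly 4, daily 3 or daily 4 it passed on the deposited scale as well (limma BH-adjusted p = 0.00876 to 0.042). The other structural subunits were not called: Psmb4 had a change of -0.35 (SE 0.14) and Psmb2 of -0.14 (SE 0.18).

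Of the 7 alpha ring subunits, Psma5 (chr3:108256926-108279974, plus strand) had the largest change. It measured 30.4, 29.7, 34.5, 33.1 and 32.7 CPM in vehicle and 28.3, 23.5, 16.4, 25.3 and 23.6 CPM in daily libraries, so that the highest daily value stayed below the lowest vehicle value. The change was -0.47 (SE 0.14, limma BH-adjusted p = 0.0703) on the deposited scale and -0.38 (SE 0.10, limma BH-adjusted p = 0.0216) with TMM scaling. Without weekly 4, daily 1 or daily 3 the deposited value was called too (limma BH-adjusted p = 0.024 to 0.0498). An antisense gene, 1700010K24Rik, shares 60 bases of exon with it on the opposite strand. The other alpha subunits (Psma1, Psma2, Psma3, Psma4, Psma6 and Psma7) had changes between -0.23 and -0.34 and none was called on either scale.

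None of the 3 catalytic subunits was called in daily against vehicle. Psmb5, the chymotrypsin-like subunit, measured 30.4, 31.7, 31.3, 29.2 and 30.2 CPM in vehicle and 29.6, 28.0, 19.1, 28.9 and 22.4 CPM in daily libraries. The daily values reached into the vehicle range on the deposited scale and stayed below it with TMM scaling. The TMM-scaled difference was -0.18 with a 95% interval of -0.44 to 0.07 (deposited -0.27, SE 0.16). Psmb6, the caspase-like subunit, had a difference of -0.14 with an interval of -0.34 to 0.06 (deposited -0.23, SE 0.15). Psmb7, the trypsin-like subunit, had a difference of -0.23 with an interval of -0.43 to -0.03, but its limma BH-adjusted p was 0.157 (deposited -0.32, SE 0.13). Exons of Psmb7 share 405 bases with Nek6 on the opposite strand, and those of Psmb5 contain Mir686. The intervals of Psmb5 and Psmb6 include 0, and that of Psmb5 also includes the -0.43 of Psmb3.

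The 6 base ATPases had daily changes between -0.43 and -0.13. Psmc2 (chr5:21785283-21803787, plus strand) was the lowest of them. It measured 56.4, 47.4, 50.1, 52.2 and 49.6 CPM in vehicle and 46.5, 43.3, 26.6, 37.0 and 38.9 CPM in daily libraries, without overlap. Its change was -0.43 (SE 0.14, limma BH-adjusted p = 0.101) and was not called on the deposited scale; with TMM scaling it was called, at -0.34 (SE 0.09, limma BH-adjusted p = 0.0234). In all it was called in 11 of 32 alternative settings, edgeR, DESeq2 and the deposited scale without weekly 4 (limma BH-adjusted p = 0.0364) among them. Psmc5 differed least, with a TMM-scaled change of -0.05 and a 95% interval of -0.24 to 0.14.

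Outside the ATPase ring, the scaffold Psmd2, the highest subunit per kilobase, averaged 168 ± 28.3 CPM in daily and 209 ± 5.20 CPM in vehicle libraries, without overlap, but its change of -0.34 (SE 0.13) was not called (limma BH-adjusted p = 0.16, and 0.0536 with TMM scaling). DESeq2 called it (BH-adjusted p = 0.00695), as did limma with median centring. The scaffold Psmd1 and the ubiquitin receptor Psmd4 had changes of -0.23 and -0.16. In the lid, apart from Psmd8, the 7 other subunits had changes from -0.31 (Psmd6) to -0.11 (Psmd13), and none was called. They include Psmd14, the deubiquitinating enzyme of the lid, at -0.21 (SE 0.14). Of the assembly chaperones, Psmd5 and Psmd10 had changes of -0.29 and -0.25 and Psmd9 of 0.05, none of them called. Exons of Psmd9 share 1849 bases with Gm26745 on the opposite strand, and the sources used here do not say whether counting used strand, so its reads cannot be told from those of that gene. Psmc3ip, at 1.00 ± 0.833 CPM in daily and 1.17 ± 0.625 CPM in vehicle libraries, was too low to judge.

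**Figure D4:**
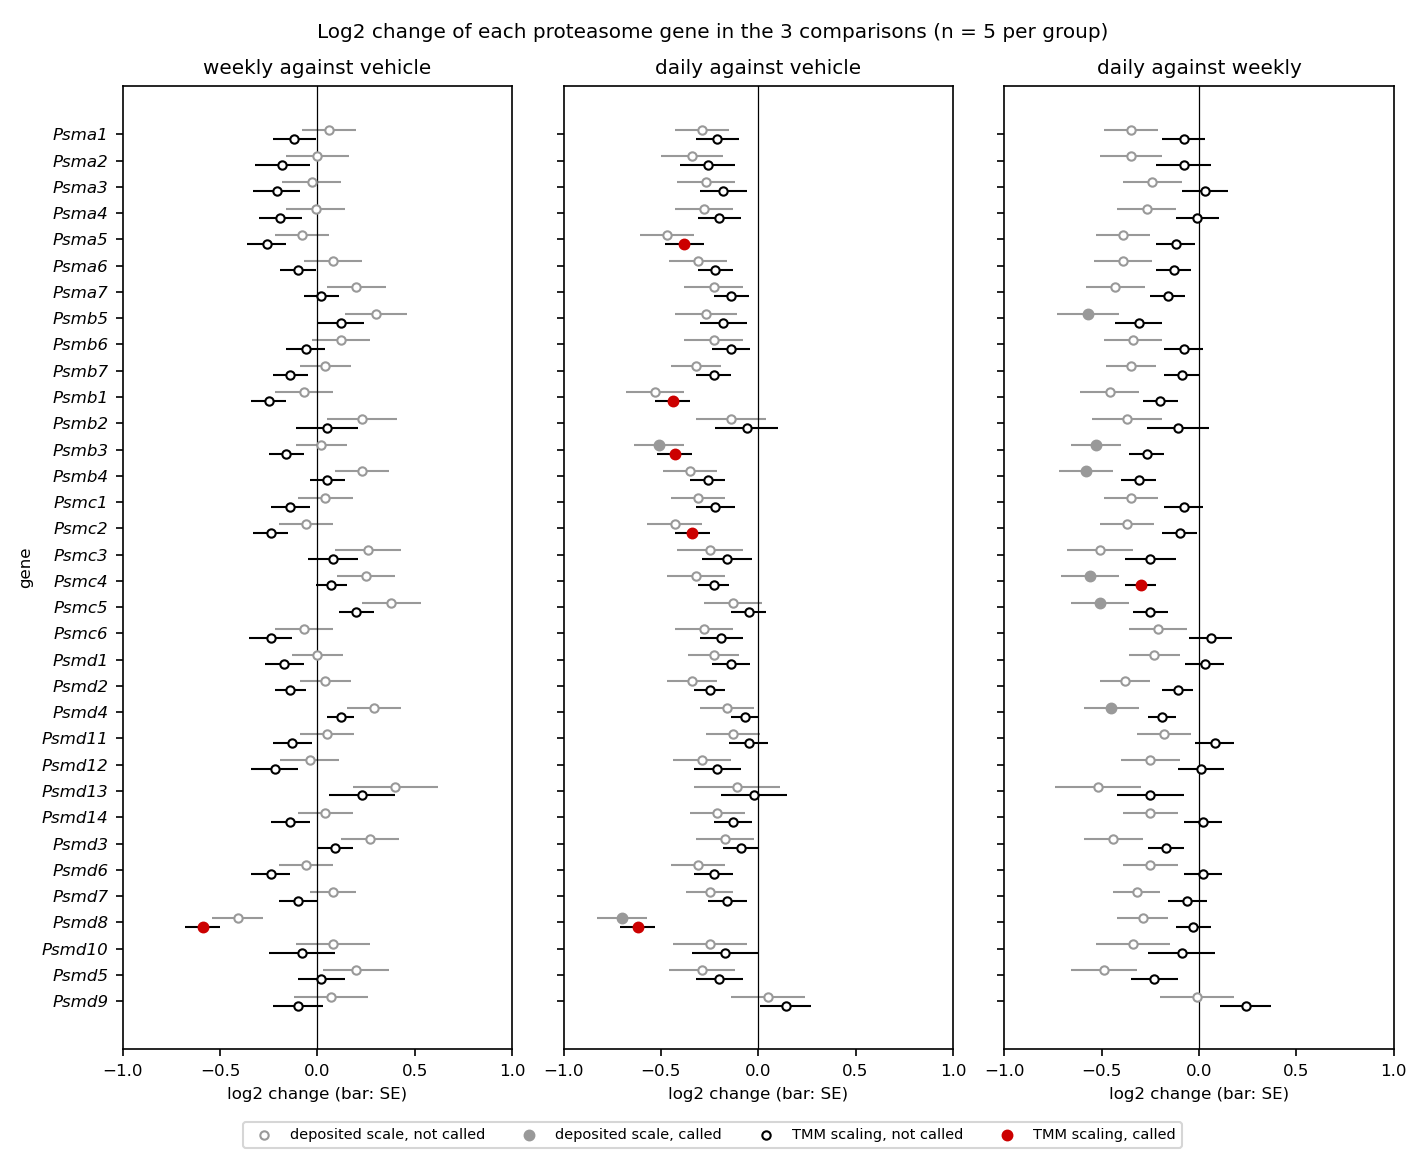
Log2 change (points) and its SE (bars) of 34 proteasome genes in the 3 comparisons, on the deposited scale (grey) and with TMM scaling (black or red); filled points are called by limma at a BH-adjusted p under 0.05. In daily against vehicle all 31 subunits lie left of 0, while in the other comparisons the grey and black points lie on either side of one another by the shift that TMM scaling removes.

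In weekly against vehicle the side on which most subunits lay depended on the scaling. Psmd8 lay farthest below vehicle on both scales. On the deposited scale 0 of 35 rows were called by limma (3 at an unadjusted p under 0.05), while 8.06% of all genes were called, 6.99% higher and 1.07% lower. edgeR called 1 row lower (Psmd8) and DESeq2 2 (Psmb1 and Psmd8), and limma called Psmd8 without weekly 2 and without daily 3. The median change of the rows was 0.05, below the median of 0.17 for all genes. After TMM scaling it was -0.12 against 0.01, 21 of 31 subunits were negative (49.2% of all genes), and 1 row, Psmd8, was called lower and 0 higher, against 4.18% and 5.73% of all genes. On the deposited scale 9 of 31 were negative (28.8% of all genes). Psmd8 was also the only one of the 31 subunits with all weekly libraries below all vehicle libraries, on either scale (1.66% of all genes deposited and 4.43% with TMM scaling).

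On the deposited scale 4 of 35 rows had every weekly library above every vehicle library, close to the share of all genes (11.8%). They were the base subunits Psmc4, Psmc5 and Psmd4 and the chaperone Psmd5. Psmc5, an ATPase, measured 62.9, 62.1, 59.2, 72.3 and 56.9 CPM in weekly libraries against 44.6 to 53.1 CPM in vehicle libraries, and Psmd4 measured 84.8, 83.6, 87.5, 111 and 84.0 CPM against 71.5 to 74.5 CPM. With TMM scaling the ranges of all 4 overlapped those of vehicle. Neither Psmc5 nor Psmd4 was called: the differences were 0.38 (SE 0.15, limma BH-adjusted p = 0.113) and 0.29 (SE 0.14, limma BH-adjusted p = 0.186), or 0.20 and 0.12 with TMM scaling. Without daily 3, both were called on the deposited scale (limma BH-adjusted p = 0.014 and 0.0288). The catalytic subunit Psmb5 ranged from 29.0 to 53.9 CPM in weekly libraries, which covers the vehicle range, and its change of 0.30 (SE 0.16) was not called. Beside these values, the adipocyte marker sum of weekly libraries was 478 to 2315 CPM, with 439 to 477 CPM in vehicle, and that of red blood cell markers was 43.5 to 78.3 against 79.1 to 84.8 CPM, both without overlap. With TMM scaling the red blood cell sums still did not overlap (41.4 to 66.8 against 80.1 to 87.0 CPM), while the adipocyte sums did (396 to 1975 against 450 to 486 CPM). Regeneration markers summed to 154 to 752 CPM over weekly and 122 to 138 CPM over vehicle libraries, without overlap on the deposited scale, and the median fibroblast sum was 3050 against 2080 CPM. Muscle fibre markers, at 191660 to 268960 CPM, covered the vehicle range. The part of these markers in the weekly values was not tested.

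Much of the weekly spread came from weekly 4. In that library the 31 subunits differed from their vehicle levels with an SD of 0.48 on the TMM-scaled log2 scale, against 0.13 to 0.19 in the other treated libraries. The direction went with base composition. Over the 15 subunits with a transcript GC content of 40.6% to 48.5% the median difference was -0.53 and 0 were above 0. For the 16 subunits of 50.4% to 57.0% GC it was 0.16, with 10 above 0. Pearson's r between GC content and the difference was 0.66 over the 31 subunits and 0.42 over 13268 tested genes with a GC value, all from the same library. In the other 9 treated libraries r over all genes lay between -0.11 and 0.15. Over the 31 subunits r was 0.55 in weekly 1 and between -0.09 (weekly 2) and 0.2 (daily 1) in the remaining treated libraries. In vehicle libraries it ranged from -0.41 (vehicle 1) to 0.43 (vehicle 2), so the subunit value of weekly 4 is less set apart than its value over all genes. Weekly 4 was also the shallowest and the richest in fibroblast and macrophage markers, and which of these goes with its values was not tested.

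**Figure D5:**
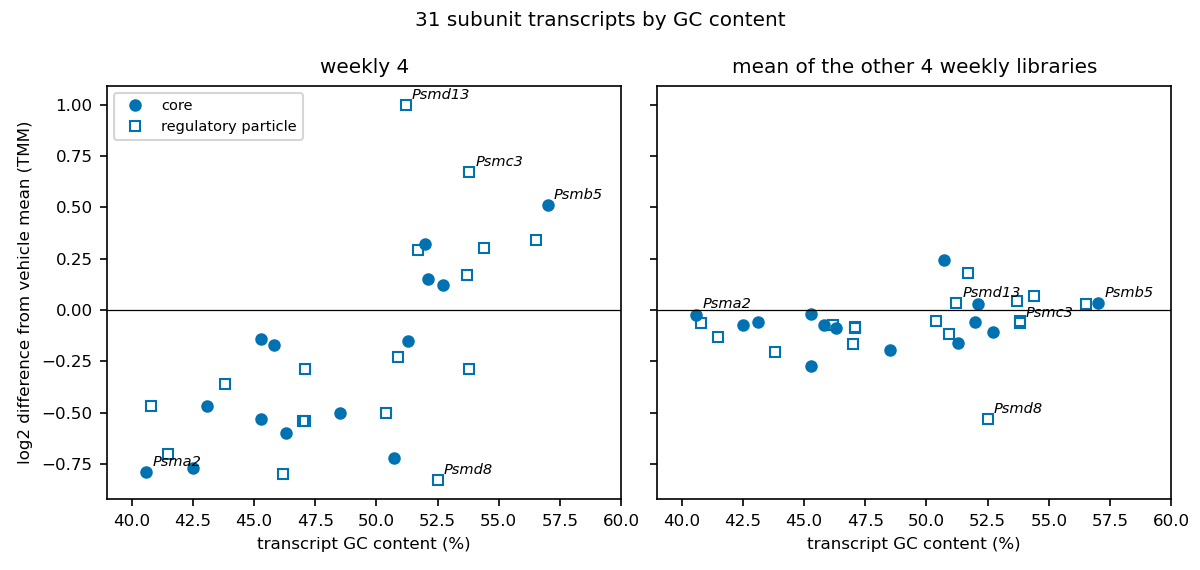
Difference of each of the 31 subunits from its vehicle mean (log2, TMM scaling, vertical axis) against the GC content of its transcripts in percent (horizontal axis), in weekly 4 (left) and as the mean of the other 4 weekly libraries (right); filled circles are core and open squares regulatory particle genes. In weekly 4 no subunit under 50% GC lies above 0, whereas in the other weekly libraries Psmd8 alone lies far from 0.

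Psmd13, a lid subunit, was the extreme case. Weekly 4 measured 82.7 CPM and the remaining weekly libraries 36.0 to 38.8 CPM, beside 29.1 to 37.8 CPM in vehicle. Its exons share 342 bases with Sirt3 on the opposite strand. Psmc3, an ATPase whose exons share 215 bases with Slc39a13, measured 167 CPM there against 81.3 to 101 CPM in weekly 1, 2, 3 and 5. Psmd8 went against the pattern: at 52.5% GC it was the lowest subunit in weekly 4, at -0.83. With weekly 4 left out of the TMM-scaled fit, 14 of the 35 rows were called lower in daily against vehicle (Psma1, Psma2, Psma3, Psma5, Psmb1, Psmb3, Psmb4, Psmb7, Psmc1, Psmc2, Psmc4, Psmd12, Psmd2 and Psmd8), with 20 at an unadjusted p under 0.05. Over all genes the same setting called 2990, against 1277 with weekly 4 kept.

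Daily against weekly was the comparison most affected by scaling. On the deposited scale all 35 rows were negative (80.3% of all genes), with a median of -0.35 against -0.24 for all genes. Of the 35 rows, 6 were called lower (Psmb3, Psmb4, Psmb5, Psmc4, Psmc5 and Psmd4), a share of 17.1%, and 0 higher. Over all genes 8.73% were called, 8.24% lower and 0.484% higher. This fit takes its spread from all 15 libraries, vehicle libraries included. In a fit of the weekly and daily libraries only, 0 rows were called on the deposited scale, and 228 genes over the table. Ranges did not overlap for 6 subunits, all lower in daily libraries (6.98% of all genes), and for 0 with TMM scaling (2.53%). With TMM scaling 24 of 31 subunits were negative (48.1% of all genes), the median was -0.10 against 0.01, and 1 row was called lower and 0 higher, against 2.64% and 2.08% of all genes. That row was the ATPase Psmc4 (chr7:28041707-28050101, minus strand). It measured 47.7, 47.0, 55.0, 60.1 and 48.5 CPM in weekly and 42.4, 39.5, 23.4, 39.1 and 32.3 CPM in daily libraries. Its change was -0.56 (SE 0.15, limma BH-adjusted p = 0.0237), and -0.30 (SE 0.08, limma BH-adjusted p = 0.0446) with TMM scaling, where the ranges of 41.4 to 49.7 and 33.9 to 41.9 CPM overlapped. Without weekly 3 or daily 5 the deposited call was lost (limma BH-adjusted p = 0.061 and 0.0599). The largest change on the deposited scale was that of Psmb4, a structural beta subunit, at -0.58 (SE 0.14, limma BH-adjusted p = 0.0129); with TMM scaling it was -0.31 (SE 0.09, limma BH-adjusted p = 0.0701). The number of rows called on the deposited scale was 2 without daily 5, when 651 genes were called over the table, and 11 without weekly 4, when 1888 were, against 1227 with all libraries. Psmb5, the only catalytic subunit called, had a change of -0.57 (SE 0.16, limma BH-adjusted p = 0.0305) on the deposited scale and of -0.31 (SE 0.12, limma BH-adjusted p = 0.165) with TMM scaling. Its call was lost without weekly 5, daily 3 or daily 5.

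Subunit transcripts varied together from library to library. The mean of Pearson's r over the 465 pairs of subunits was 0.35 across the 15 libraries with TMM scaling (median 0.45, range -0.74 to 0.98), and the mean r over all pairs of tested genes was 0. Without weekly 4 the mean was 0.54, the median 0.59 and the range -0.18 to 0.92. The pairs share libraries, groups and scaling, and the values are given as a description. Among the daily libraries the median difference of the subunits from vehicle was lowest in daily 5 (-0.30, with all 31 below 0) and nearest to 0 in daily 1 (-0.13, with 27 below 0). Weekly 5 had a median of -0.17 and 30 of 31 subunits below 0, whereas weekly 1 and weekly 2 had medians of 0.02 and 0.06.

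Genes around the proteasome were described from lists of related functions. The immunoproteasome subunits Psmb8, Psmb9 and Psmb10, which replace the catalytic subunits in immune cells and after interferon, were low in this muscle, at 5.79 ± 0.522, 2.48 ± 0.669 and 6.74 ± 1.22 CPM in vehicle libraries. None of the 3 was called against vehicle in either group (1 at an unadjusted p under 0.05 in weekly and 0 in daily libraries; edgeR and DESeq2 0). Their median changes were 0.59 in weekly and -0.63 in daily libraries, and those of all genes 0.17 and -0.08. Psmb8 measured 3.60, 5.52, 9.36, 24.5 and 11.7 CPM in weekly and 3.88, 5.71, 2.48, 2.72 and 3.74 CPM in daily libraries, so that weekly 4 was again the highest. In daily against weekly Psmb8 fell by 1.21 (SE 0.33, limma BH-adjusted p = 0.0279) and Psmb9 fell by 1.12 (SE 0.33, limma BH-adjusted p = 0.0355); with TMM scaling neither was called (-0.97 and -0.91). Both deposited calls were also lost without weekly 3, weekly 5, daily 3, daily 4 or daily 5 (limma BH-adjusted p = 0.053 to 0.105). Of the 5 activators and inhibitor, the 2 subunits of the immune activator, Psme1 and Psme2, were lower in daily than in weekly libraries by the same test (-0.66, SE 0.21, limma BH-adjusted p = 0.049, and -0.91, SE 0.25, limma BH-adjusted p = 0.0281) and not with TMM scaling. The call of Psme1 was lost without any one of 12 of the 15 libraries, and that of Psme2 without weekly 3, weekly 5 or daily 3. The median change of the 5 against vehicle was 0.36 in weekly and -0.08 in daily libraries, with 0 called by limma, edgeR or DESeq2 (3 and 1 at an unadjusted p under 0.05). Psme4, the nuclear activator, was not called in any of the 3 comparisons.

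Nfe2l1, the transcription factor of proteasome genes, was abundant and was not called: it averaged 615 ± 20.1 CPM in vehicle, 726 ± 92.2 in weekly and 566 ± 104 in daily libraries, with TMM-scaled changes from vehicle of 0.05 (SE 0.10) and -0.05 (SE 0.10). Of its small Maf partners, Maff and Mafk rose. Maff measured 1.40 to 2.86 CPM in vehicle, 8.01, 7.60, 11.9, 27.0 and 11.7 CPM in weekly and 9.69, 12.5, 6.51, 9.42 and 8.04 CPM in daily libraries. Every treated library was above every vehicle library, and the rise was 2.35 (SE 0.27, limma BH-adjusted p = 1.12e-05) in weekly and 1.98 (SE 0.27, limma BH-adjusted p = 0.000118) in daily libraries. Mafk rose by 1.14 (SE 0.19, limma BH-adjusted p = 0.000625) in weekly libraries; in daily libraries its change of 0.66 (SE 0.19, limma BH-adjusted p = 0.0561) was not called on the deposited scale but was with TMM scaling, edgeR and DESeq2. Of the 11 genes of this list, 2 were called higher in weekly and 1 in daily libraries (6.99% and 1.76% of all genes) and 0 lower in either, with medians of 0.18 and -0.15. With TMM scaling 3 were called higher (Maff, Mafk and Mafg; 5.61% of all genes) and 1 lower (Keap1; 3.47%) in daily libraries. In daily against weekly 1 was called lower, the autophagy receptor Sqstm1 (8.24% of all genes), at -0.53 (SE 0.14, limma BH-adjusted p = 0.0199), lost without daily 5, and 0 with TMM scaling (2 at an unadjusted p under 0.05; edgeR 0, DESeq2 1).

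Upstream of the proteasome, the muscle ubiquitin ligase Fbxo32 (atrogin-1) fell in both groups. Its CPM was 554 to 627 in vehicle, 235 to 417 in weekly and 240 to 344 in daily libraries, without overlap between treated and vehicle libraries. The changes were -0.92 (SE 0.15, limma BH-adjusted p = 0.000531) and -0.97 (SE 0.15, limma BH-adjusted p = 0.000456), and the difference of daily and weekly did not pass the test (-0.05, SE 0.15). An antisense gene, Gm15943, shares 186 bases of exon with it. Fbxo32 was the only one of the 14 ligases called against vehicle on the deposited scale, where 1.07% (weekly) and 2.13% (daily) of all genes were called lower, and the medians of the list were 0.10 in weekly and -0.14 in daily libraries. With TMM scaling 2 were called higher (Trim63 and Cblb) and 2 lower (Fbxo32 and Fbxo21) in daily libraries. Trim63 (MuRF1), the other ligase best known from muscle wasting, had the opposite sign. It averaged 120 ± 3.34 CPM in vehicle and 191 ± 34.4 CPM in daily libraries. The change was 0.65 (SE 0.20, limma BH-adjusted p = 0.068), which was called with TMM scaling (0.74, SE 0.17, limma BH-adjusted p = 0.00902), edgeR and DESeq2. Weekly libraries 1 to 5 measured 160, 162, 163, 364 and 141 CPM, all above the 115 to 124 CPM of vehicle libraries. With TMM scaling the weekly range of 120 to 301 CPM overlapped the vehicle range of 117 to 127 CPM. Trim63 was not called by limma in weekly against vehicle on either scale. In daily against weekly 1 ligase, Trim32, was called lower on the deposited scale (-0.56, SE 0.16, limma BH-adjusted p = 0.0338) and 0 higher. Over all genes 8.24% were called lower there. The Trim32 call was lost without weekly 3, weekly 5, daily 4 or daily 5. With TMM scaling 0 ligases were called lower and 1 other ligase higher, against 2.64% and 2.08% of all genes. The counts by edgeR and by DESeq2 were likewise 0 lower and 1 higher.

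Among the 12 genes of ubiquitin and its activation, 1 was called lower in weekly against vehicle (1.07% of all genes) and the median was -0.01. It was the conjugating enzyme Ube2d1, at 42.6 ± 17.1 CPM over weekly and 72.7 ± 3.92 CPM over vehicle libraries, a change of -0.88 (SE 0.22, limma BH-adjusted p = 0.0178). Its lowest value was again in weekly 4, at 17.6 CPM. Daily libraries measured 48.7, 44.6, 36.1, 51.7 and 39.6 CPM of Ube2d1, all below the 68.1 to 78.2 CPM of vehicle libraries, though limma did not call it there. In daily against vehicle 0 of the 12 were called by limma (5 at an unadjusted p under 0.05), 0 by limma with TMM scaling, 1 lower by edgeR and 2 lower by DESeq2. All 12 had a negative change there (61.6% of all genes), with a median of -0.21. In daily against weekly 1 was called lower on the deposited scale (8.24% of all genes), the ubiquitin-activating enzyme Uba1, at -0.55 (SE 0.15, limma BH-adjusted p = 0.0258). This call was lost without weekly 3 or daily 5. With TMM scaling and by edgeR 0 of the 12 were called in that comparison, and DESeq2 called 1 lower.

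The remaining lists held no call on the deposited scale in any comparison. For the 5 core assembly chaperones, which include Pomp, the median was 0.23 in weekly and -0.26 in daily libraries against vehicle, with 0 at an unadjusted p under 0.05 in both and 0 called by edgeR or DESeq2. For the 13 proteasome-bound and shuttle proteins with a row, the medians were 0.08 and -0.21, with 3 and 2 at an unadjusted p under 0.05. In weekly against vehicle edgeR and DESeq2 each called 2 of these lower, and limma with TMM scaling called Ubqln2, a shuttle for ubiquitinated proteins, and Zfand5, which binds ubiquitin and the proteasome, at -0.61 (SE 0.16, limma BH-adjusted p = 0.0209) and -0.59 (SE 0.15, limma BH-adjusted p = 0.0184). In daily against vehicle edgeR called 0 and DESeq2 called 2 of them lower.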

How the data were processed

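The 15 stranded libraries were made from total RNA of quadriceps, per the labels' protocols. The submitters' processing notes name TopHat2 2.1.0, HTSeq, edgeR and the build mm10 (GRCm38). The authors deposited 1 table of CPM values (reads per gene scaled to the library total, with no gene length in them): all 222090 values are whole multiples of 1 read within 0.01 reads, with 1 step per library, although the labels name RPKM. Rows without a gene name (534 of 14806) held 0.276% to 0.447% of the reads and were left out. Recovered depth was 2780768 to 11052552 reads, so that 3 reads equal 0.271 to 1.08 CPM (counting error only).

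The main test was limma 3.58.1 (R 4.3.3, empirical Bayes with trend) on log2(CPM + 0.5), in 1 fit over all 15 libraries with group as the term, for 14059 genes with at least 1 CPM in at least 5 libraries, including all 35 rows described. P-values were BH-adjusted over all genes tested, and genes under 0.05 were called. Changes on this scale understate those of low genes. TMM scaling (edgeR 4.0.16) was computed beside it, and edgeR and DESeq2 1.42.0 ran on recovered reads. Pairs of vehicle libraries differed by a chi-square per degree of freedom of at least 1.51, so none was 1 library deposited again; this does not show that they are separate animals. Correlations between libraries of the same replicate number were -0.03 to 0.15 (1 of 15 over 0.1), so no pairing was evident. They do not exclude a pairing, since the vehicle libraries differed little from one another.

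The fit without weekly 4 and daily 3 together and the TMM-scaled marker sums were added after seeing the data. Members and gene lists were chosen with earlier results of these data known. Changes were followed through the alternatives for the 3 catalytic subunits, for members among the 5 smallest p-values of any comparison and for the 2 called genes of smallest p in each list; other genes named were chosen after their values were seen. The lists name Ecpas, Paaf1 and Sem1, which had no row under those symbols. Ecpas and Sem1 were counted under their older symbols, AI314180 and Shfm1. Adrm1 and Shfm1, listed with the proteasome-bound proteins, are not in the regulatory particle sums, which follow the symbol rule. Coordinates, lengths and overlaps come from GENCODE M21 (GRCm38), promoters from RefSeq (GRCm38.p6). On simulated counts for daily against vehicle, the test recovered 22.4% of 67 genes changed 1.5-fold and 74.6% of 67 changed 2-fold among 13684 genes, with 0 false calls. For weekly against vehicle it recovered 23.9% and 61.2%, with 34 false calls among 13706 genes, and for daily against weekly 23.9% and 74.6%, with 44 among 13685. The simulation drew genes independently, with a single spread per group and no composition difference between libraries. It therefore cannot show how many calls are false in the measured libraries, where these conditions do not hold.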

Additional observations from a re-analysis of the deposited data

Results flagged for a closer look

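A single library, weekly 4, lay far from the rest of its group for 2 subunits. Its Psmd13 value was 82.7 CPM, where the remaining 4 had 36.0 to 38.8 CPM. Its Psmd4 value was 111 CPM, where they had 83.6 to 87.5 CPM. Of 48 groups of 5 values examined these 2 stood out, which is no more than the rate of about 1 in 20 that chance alone flags. Both values come from the shallow library that stands apart in marker levels and GC content.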

How the results depend on the processing

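Values are limma results on the deposited scale unless a scaling or tool is named. Over 32 alternatives, 1335 of 1664 values of single genes kept their direction and side of the threshold, 224 lost a call, 65 gained one and 40 turned sign. Psmd8 in daily against vehicle was called in 30 of 32 (-0.76 to -0.57) and Psmb3 in 24 of 32 (-0.56 to -0.43). The causes of the differences between settings were not tested. Settings which leave out libraries have fewer samples. On the deposited scale a library outside the 2 groups compared enters only through the shared estimate of spread and the gene filter. Without weekly 4 the median change of the rows in daily against vehicle stayed at -0.28, while 1478 genes were called instead of 547.

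In weekly against vehicle 1133 genes were called; DESeq2 called 1904, vehicle libraries averaged to 1 sample 8 (10 with TMM scaling), TMM scaling without weekly 4 2404 and without weekly 4 and daily 3 2398. Members called lower were 0; they were 1 under TMM scaling, quantile normalization, a pseudocount of 2, edgeR, TMM scaling without daily 3, the replicate block with TMM scaling and a fit of 2 groups only, and 2 under median centring, DESeq2, TMM scaling without weekly 4 and TMM scaling without both. The fit of 2 groups only called 1 member higher (Psmc5). Leaving out 1 library gave 645 (without vehicle 2) to 2251 genes (without daily 3), 0 to 2 members higher (Psmc5 and Psmd4 without daily 3) and 0 to 1 lower (Psmd8 without weekly 2 or daily 3).

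In daily against vehicle 547 genes were called; TMM scaling called 1277, median centring 1230, quantile normalization 1290, edgeR 1332, DESeq2 1596, averaged vehicle libraries 3 (19 with TMM scaling), TMM scaling without weekly 4 2990, without daily 3 1009 and without both 2844, the replicate block with TMM scaling 1074 and 2 groups only 1665. Members called lower were 2; they were 5 under TMM scaling, quantile normalization, edgeR, TMM scaling without daily 3, the block with TMM scaling and 2 groups only, 6 under median centring and DESeq2, 0 under averaged vehicle libraries on both scales, 14 under TMM scaling without weekly 4 and without both, and 1 under the replicate block (Psmd8). Leaving out 1 library gave 347 (without vehicle 5) to 1478 genes (without weekly 4) and 1 to 5 members, 5 without weekly 4 and 1 without vehicle 1, 2, 3 or 5 or daily 5.

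In daily against weekly 1227 genes were called; TMM scaling called 663, median centring 644, quantile normalization 702, edgeR 747, averaged vehicle libraries 232 (204 with TMM scaling), TMM scaling without weekly 4 1883 and without daily 3 419, the replicate block with TMM scaling 527 and 2 groups only 228. Members called lower were 6; they were 1 under TMM scaling and edgeR, 2 under DESeq2, 3 without the trend, under TMM scaling without weekly 4 and without both, and 0 under median centring, quantile normalization, averaged vehicle libraries on both scales, TMM scaling without daily 3, the block with TMM scaling and 2 groups only. Leaving out 1 library gave 521 (without weekly 5) to 1888 genes (without weekly 4) and 2 (without daily 5) to 11 members (without weekly 4). No pairing by replicate number was evident. The replicate block on the deposited scale called 1096 genes in weekly against vehicle and 5 members lower in daily against weekly.

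Small changes turned sign. In weekly against vehicle Psmb3 (0.02) became -0.16 under TMM scaling, DESeq2, averaged vehicle with TMM scaling, TMM scaling without weekly 4 and the block with TMM scaling, -0.15 under edgeR and TMM scaling without daily 3, -0.17 without both, -0.20 under quantile normalization and -0.22 under median centring, and ranged from -0.01 to 0.06 with 1 library left out. Psmb6 (0.12) became -0.06 under TMM scaling, edgeR, averaged vehicle with TMM scaling, TMM scaling without daily 3 and the block with TMM scaling, -0.07 under DESeq2, -0.11 under quantile normalization and TMM scaling without weekly 4, and -0.12 under median centring and without both. Psmb7 (0.04) became -0.14 under TMM scaling, averaged vehicle with TMM scaling and the block with TMM scaling, -0.13 under TMM scaling without daily 3, -0.12 under edgeR and DESeq2, -0.16 under quantile normalization, -0.20 under median centring, -0.06 under TMM scaling without weekly 4 and -0.07 without both, and ranged from 0.00 to 0.09 with 1 library left out. Psmb4 became -0.01 under median centring. In daily against vehicle Psmc5 became 0.01 without daily 3 (range -0.22 to 0.01), and Psmd13 0.08 without daily 3 (range -0.24 to 0.08), 0.05 under TMM scaling without it and 0.03 without both. In daily against weekly Psmd13 became 0.01 under TMM scaling without both, and Psmd8 0.04 under quantile normalization.

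Depth limits weekly 4 most, where 3 reads equal 1.08 CPM.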
